A study of Mus musculus with 7 samples.

Results

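Forestomach and small intestine of the mouse embryo were compared by the positions of their open chromatin at embryonic day 16 (E16). ATAC-seq, in which a transposase cuts accessible DNA, had given each tissue a list of peaks, and the peaks of both lists on chromosomes 1 to 19 and X were merged wherever they overlapped by at least 1 bp. The merged set held 140855 regions, of the 326695 regions that the 7 libraries of the study hold together. A region with peaks from a single list is called forestomach-only or intestine-only, and a region with peaks from both is called shared. Both tissues are epithelium of ShhCre;R26YFP/+ embryos, in which Cre made in Shh-expressing cells switches on a YFP reporter, and no treatment was given. The forestomach epithelium was cut away from the hindstomach, loosened with dispase and peeled off, and collagenase was used before sorting. The epithelium of the proximal small intestine was shaken off after incubation in 5 mM EDTA. Tissue and isolation therefore cannot be told apart in any result given here. The other 5 libraries are used below for reference and are E16 hindstomach (10 mM EDTA), E16 stomach with a Sox2 knockout (KO), E13 stomach, E16 colon and E13 intestine. The labels do not describe how the KO epithelium was isolated.

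There was 1 library per tissue, so no spread between samples is known and no difference was tested. Intervals are 95% Wilson intervals, which cover counting error only. The files hold no peak heights or read counts, so sequencing depth is unknown. The lists held 87443 peaks in forestomach and 97568 in small intestine, with median widths of 178 bp and 130 bp. The narrowest peaks measured 108 bp in forestomach and 87 bp in small intestine, which touches every count of intestine-only regions. Counts were therefore made again after peaks narrower than 108 bp were left out of both lists. This is called the common width limit below, or counts without narrow peaks. Such counts are given where they change a list or a member of a list most. They were not made for named genes outside the lists or for the 100 kb bins of the genome. Only the intestine list loses peaks by this limit. A shared region that loses its intestine peak then counts as forestomach-only, so the limit moves counts towards forestomach.

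The forestomach is the squamous part of the rodent stomach. Its stratified epithelium is set up by the transcription factors p63 (Trp63), SOX2 and PAX9 and later forms keratin bundles, desmosomes and a cornified surface. The small intestine carries a simple columnar epithelium specified by CDX2 and driven towards absorption by HNF4 and GATA factors. HNF4 proteins bind with HNF1 and CDX2 at genes for the brush border, for fat export and for nutrient uptake. AP-1, a dimer of FOS and JUN proteins, is active in stratified epithelia and also answers stress and tissue handling.

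The promoter windows below belong to genes of squamous, gastric or intestinal epithelium, and a peak of a single tissue touched each of them. They are a chosen few and do not stand for their class in motif content. AP-1 letters stood in 10.6% of all windows with a peak in forestomach only. HNF1 letters stood in 1.14% of those with a peak in small intestine only. The peaks covered from 77 to 300 bases of a window. They are RefSeq promoters of GRCm38.p6 (the mm10 build), each 250 bases before to 50 bases after an annotated start, read 5′ to 3′ on the gene's strand. Capitals mark the letters of any of the 11 motifs searched on both strands, which are spelled out with their shares further on. The first 3 had a peak in forestomach and not in small intestine: Anxa10, a gastric annexin (chr8:62123144-62123443, minus strand), the suprabasal keratin Krt13 at the downstream of its 2 listed starts (chr11:100120528-100120827, minus strand), and involucrin, Ivl, a cornified envelope protein (chr3:92573686-92573985, minus strand).
Anxa10: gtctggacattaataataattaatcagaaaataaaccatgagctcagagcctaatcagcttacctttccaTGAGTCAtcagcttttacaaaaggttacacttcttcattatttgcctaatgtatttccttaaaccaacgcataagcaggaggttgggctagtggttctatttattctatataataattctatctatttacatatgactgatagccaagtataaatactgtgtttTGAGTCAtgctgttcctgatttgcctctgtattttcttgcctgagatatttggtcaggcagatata
Krt13: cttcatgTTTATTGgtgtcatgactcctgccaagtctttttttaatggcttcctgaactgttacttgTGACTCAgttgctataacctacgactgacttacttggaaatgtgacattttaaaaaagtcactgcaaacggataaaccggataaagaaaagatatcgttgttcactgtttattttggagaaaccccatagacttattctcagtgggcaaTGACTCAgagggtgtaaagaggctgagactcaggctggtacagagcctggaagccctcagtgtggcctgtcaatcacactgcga
Ivl: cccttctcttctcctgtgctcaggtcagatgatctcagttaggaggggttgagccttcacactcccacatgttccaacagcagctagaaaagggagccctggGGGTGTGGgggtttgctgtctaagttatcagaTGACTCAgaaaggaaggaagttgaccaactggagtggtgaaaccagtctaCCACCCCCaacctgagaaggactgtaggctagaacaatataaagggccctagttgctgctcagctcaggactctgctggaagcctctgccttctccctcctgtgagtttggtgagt
The AP-1 letters TGANTCA stand at 2 places in the Anxa10 window, at 2 in the Krt13 window and at 1 in the Ivl window. All of them lay inside the forestomach peak except the upstream one of Krt13. The Krt13 window also holds CDX letters outside its peak, and the Ivl window KLF letters inside it at 2 places. At the upstream start of Krt13 neither tissue had a peak. The Anxa10 window also had a peak in E16 hindstomach and in KO stomach.

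The next 5 windows had a peak in small intestine and not in forestomach. They belong to Cdx2 (chr5:147307200-147307499, minus strand), to Apob, the backbone protein of fat-carrying chylomicrons (chr12:7977427-7977726, plus strand), and to Npc1l1, the cholesterol uptake transporter (chr11:6230196-6230495, minus strand). The other two belong to the chloride-bicarbonate exchanger Slc26a3 (chr12:31437969-31438268, plus strand) and to the amino acid transporter subunit Slc3a1 (chr17:85028097-85028396, plus strand).
Cdx2: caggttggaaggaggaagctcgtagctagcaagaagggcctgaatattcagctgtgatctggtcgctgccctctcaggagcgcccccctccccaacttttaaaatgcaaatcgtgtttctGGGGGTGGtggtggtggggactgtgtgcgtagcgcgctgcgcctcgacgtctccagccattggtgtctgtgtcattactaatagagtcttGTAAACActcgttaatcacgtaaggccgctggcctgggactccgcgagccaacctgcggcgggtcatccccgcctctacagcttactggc
Apob: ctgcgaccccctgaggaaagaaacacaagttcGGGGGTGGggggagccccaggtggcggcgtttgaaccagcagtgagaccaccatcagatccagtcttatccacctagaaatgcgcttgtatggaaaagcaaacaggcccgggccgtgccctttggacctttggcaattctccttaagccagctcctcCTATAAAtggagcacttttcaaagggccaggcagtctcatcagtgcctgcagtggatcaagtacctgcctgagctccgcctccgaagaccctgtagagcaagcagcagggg
Npc1l1: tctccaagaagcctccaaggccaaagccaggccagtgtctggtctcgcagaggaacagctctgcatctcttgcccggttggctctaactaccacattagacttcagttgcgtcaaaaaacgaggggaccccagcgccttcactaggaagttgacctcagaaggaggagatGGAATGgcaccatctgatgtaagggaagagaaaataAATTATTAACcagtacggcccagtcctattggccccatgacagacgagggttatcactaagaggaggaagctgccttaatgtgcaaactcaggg
Slc26a3: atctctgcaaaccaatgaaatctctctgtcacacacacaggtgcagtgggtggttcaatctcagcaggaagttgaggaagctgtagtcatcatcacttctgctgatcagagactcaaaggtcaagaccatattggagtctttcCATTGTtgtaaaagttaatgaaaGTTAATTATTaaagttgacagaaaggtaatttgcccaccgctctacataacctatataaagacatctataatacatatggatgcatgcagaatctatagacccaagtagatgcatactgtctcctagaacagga
Slc3a1: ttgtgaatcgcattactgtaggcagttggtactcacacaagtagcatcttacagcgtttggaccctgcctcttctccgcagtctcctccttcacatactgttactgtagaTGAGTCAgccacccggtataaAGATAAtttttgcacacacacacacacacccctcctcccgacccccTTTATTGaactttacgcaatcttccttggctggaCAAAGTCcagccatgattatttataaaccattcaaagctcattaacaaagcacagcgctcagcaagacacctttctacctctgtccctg
The long capital run in Npc1l1 and in Slc26a3 is the HNF1 motif, and it lay outside the peak in both windows. CAAAGTC in Slc3a1 is the HNF4 motif and lay inside the peak. The Slc3a1 window also holds AP-1, GATA and CDX letters inside its peak. The Cdx2 window holds FOXA letters inside its peak and KLF letters outside it. In Apob the KLF letters lay outside the peak. CTATAAA, inside it, is counted as CDX letters, but the same letters can be a TATA box.

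Of the 140855 regions, 44524 were forestomach-only (31.6%, 31.4 to 31.9), 53863 were intestine-only (38.2%, 38.0 to 38.5) and 42468 were shared (30.2%, 29.9 to 30.4). The Jaccard index, the shared part of all regions, was 0.302. It was 0.588 over the 19965 regions within 1 kb of an end of a protein-coding gene and 0.254 over the 120890 regions farther away. Most of the regions in which the tissues differed thus lay away from gene ends, 40007 forestomach-only and 50164 intestine-only. Gene ends held 10.1% of forestomach-only regions (9.87 to 10.4), 6.87% of intestine-only regions (6.66 to 7.08) and 27.7% of shared regions (27.2 to 28.1).

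**Figure D1:**
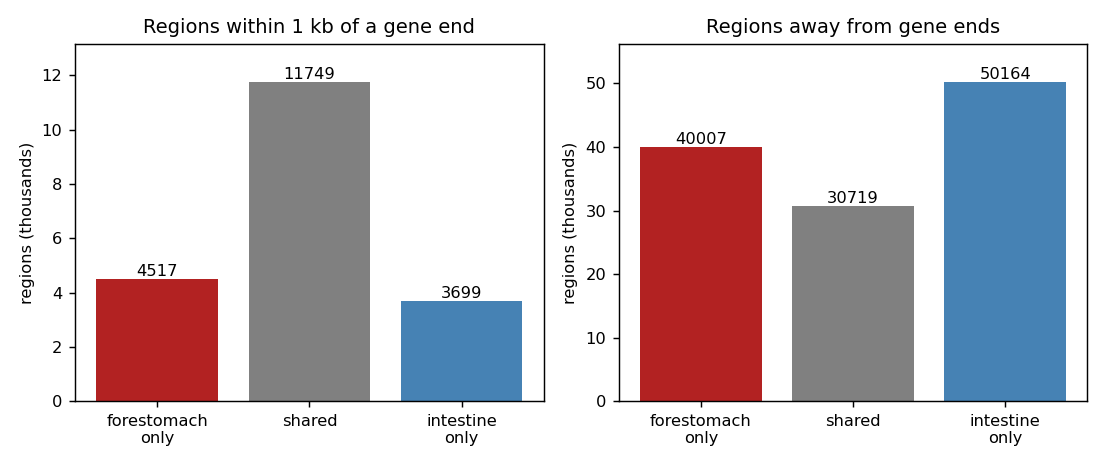
Regions of each class within 1 kb of a gene end (left) and away from gene ends (right), from 1 library per tissue. Shared regions are the tallest bar at gene ends with 11749, whereas away from gene ends intestine-only regions are the tallest with 50164.

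Wide peaks were shared more often than narrow ones in both tissues. In forestomach 86.0% of peaks of at least 500 bp overlapped a peak of the other tissue, and 36.9% of those from 100 to 150 bp did. In small intestine the shares were 96.4% of peaks of at least 500 bp, 37.1% of peaks from 100 to 150 bp and 19.7% of peaks under 100 bp. With the common width limit the order of the unshared classes turned, since forestomach-only regions then outnumbered intestine-only ones by 24617. They outnumbered them by 684 when the lists were cut to the same length by width and by 597 when the longer list was thinned at random. Which tissue has more open regions of its own thus depends on list length and on narrow peaks.

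Each region was given to the nearest protein-coding gene within 100 kb, which placed 83.5% of regions. Of the 16316 genes with an unshared region, 6057 (37.1%) had more forestomach-only regions and 7702 (47.2%) had more intestine-only regions. These are called genes leaning to one tissue, and a list of genes is read against these shares. The log2 ratio of a gene's forestomach-only to its intestine-only regions, with 0.5 added to each count, had a median of 0.00 over all these genes. Under the common width limit that median stood at 1.14, with 10226 genes leaning to forestomach and 3220 to small intestine. List medians under that limit are therefore given after subtracting 1.14.

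The squamous regulators leaned to forestomach in 9 of the 15 members with an unshared region, and to small intestine in 4. Trp63, the master regulator of stratified epithelium, had 4 forestomach-only regions, 1 intestine-only and 2 shared. Of its forestomach-only regions 2 lay in the gene body. Pax9, a paired-box factor of the foregut, had 3 forestomach-only regions and none of small intestine alone. The same holds for Zfp750, a p63 target that drives squamous differentiation, and for the epithelial factor Grhl1, at 3 and 0 each. Of these forestomach-only regions E16 hindstomach also had a peak at 3 of 3 for Pax9, 2 of 4 for Trp63 and 1 of 3 for Zfp750. For Sox2, described below, it had one at 2 of 5. Ehf, an epithelial ETS factor, had 9 forestomach-only and 5 intestine-only regions.
Sox2 was almost even, with 5 forestomach-only, 4 intestine-only and 4 shared regions. Its promoter was open in both tissues, but a region in its short gene body and another 535 bp outside it (219 bp and 159 bp wide) were forestomach-only. The 4 intestine-only regions lay from 44604 to 92481 bp away from the gene. Barx2 at 3 and 6 (5 and 1 with the common width limit) and Ovol1, a zinc finger repressor of epidermis, at 0 and 2 were the members with a lean of at least 2 regions to small intestine. The list median was 0.49, and 0.73 above that of all genes with the common width limit. There Sox2 had 6 forestomach-only regions and 1 intestine-only, and Trp63 6 and 0. The forestomach-only regions added there, the Sox2 promoter and the shared regions of Trp63, had an intestine peak narrower than 108 bp. Over regions away from gene ends the list stood at 8 members against 6, with the same median of 0.49.

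Structural genes of squamous epithelium had the same lean, with 9 of 16 keratin and junction genes towards forestomach and 2 towards small intestine. Pkp1, a desmosomal plakophilin, had 5 and 1, the hemidesmosome integrin Itga6 had 8 and 4, and the desmosomal cadherin Dsc3 had 4 and 2.
The keratin genes themselves held few regions. Krt5 and Krt14, the basal keratin pair, had 1 forestomach-only and 1 intestine-only region each, and the region at the gene ends was the forestomach one in both. Krt13 had 1 forestomach-only and 1 shared region. E16 hindstomach had a peak at the forestomach-only regions of Krt5 and Krt14, and none at that of Krt13. No region of either tissue was given to Krt15 or Krt4. Perp, a desmosome-associated p63 target, went the other way with 2 and 4, and had 2 and 2 without narrow peaks. The list median was 0.30, and 0.44 above that of all genes with the common width limit. Over regions away from gene ends 5 members leaned to forestomach and 4 to small intestine, with a median of 0.00. The housekeeping genes counted below also stood 0.44 above all genes under the common width limit.

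Cornified envelope genes leaned to forestomach in 8 of 11 members and to small intestine in 2, with a median of 0.74. Anxa1 had 6 forestomach-only and 3 intestine-only regions, Ppl (periplakin) 5 and 2, and the small proline-rich gene Sprr1b and the secreted Sbsn 2 and 0 each. Tgm3, a transglutaminase of the late envelope, had 1 and 6 (2 and 3 without narrow peaks), and Crnn (cornulin) 0 and 3. For Sprr3 and Cnfn no region was found. Several of these genes are neighbours on chromosome 3, and small neighbouring genes share the regions between them by distance alone. With gene bodies only, 3 members leaned to forestomach and 2 to small intestine, with a median of 0.00. Over regions away from gene ends the counts were 9 and 2, with a median of 0.74.

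Genes of the glandular stomach leaned to forestomach in 9 of 13 members and to small intestine in 2, with a median of 1.22, and 1.18 above that of all genes with the common width limit. They had 34 forestomach-only against 13 intestine-only regions. Anxa10 had 7 forestomach-only regions, 0 intestine-only and 3 shared. Tff1, the trefoil peptide of stomach surface cells, and Ctse, the gastric protease cathepsin E, had 4 and 0 each. Muc5ac, the surface mucin, had 5 and 2. The gastrokine gene Gkn3 went against the rest with 0 and 3, and Gkn1 with 0 and 2.
Of the 7 forestomach-only regions of Anxa10, 6 also had a peak in E16 hindstomach, 2 in KO stomach and none in E13 stomach, colon or E13 intestine. Foregut patterning genes, which hold Sox2 and Pax9 too, leaned to forestomach in 2 of 10 members and to small intestine in 5. Irx2 had 3 forestomach-only and 8 intestine-only regions there, and 3 of each without narrow peaks. With gene bodies extended by 10 kb the same list counted 7 against 2, so it has no stable direction.

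The intestinal transcription factors leaned to small intestine in 11 of 18 members and to forestomach in 3, with 45 forestomach-only and 84 intestine-only regions. Cdx2 had 0 forestomach-only, 2 intestine-only and 3 shared regions, and Cdx1 0, 3 and 1. One of the intestine-only regions of Cdx2 covers its start over 434 bp (chr5:147306905-147307339, as deposited). That start also had a peak in hindstomach, KO stomach, E13 intestine and colon, and not in E13 stomach. Hnf4g, an HNF4 paralogue of enterocytes, had 0, 10 and 3 regions, and 8 of the 10 lay in its gene body. Isx, an intestine-specific homeobox factor that governs carotenoid uptake, had 0, 9 and 2, and Maf 1, 9 and 7. Nr1i2, the xenobiotic receptor PXR, had 0, 4 and 1.
Hnf4a had 0 forestomach-only, 4 intestine-only and 4 shared regions, and the 2 of its starts that the promoter table lists were open in both tissues. Its lean depended on narrow peaks, since 3 of the 4 were at most 104 bp wide. With the common width limit it had 2 forestomach-only and 1 intestine-only region. Those forestomach-only regions were shared ones that lost a narrow intestine peak. Gata4, a factor of the hindstomach as well as the proximal intestine, stood apart from the list with 9 forestomach-only, 1 intestine-only and 8 shared regions. E16 hindstomach also had a peak at all 9 of these forestomach-only regions, and colon and E13 intestine at none.
The list median was -0.94. When narrow peaks were left out so, 10 members leaned to forestomach and 6 to small intestine, and the median stood 0.55 below that of all genes. Under that limit Hnf4g kept 6 intestine-only regions, Isx 6 and Cdx1, Cdx2 and Nr1i2 2 each, with 0 forestomach-only regions each. Maf had 4 forestomach-only and 2 intestine-only regions. Those added on the forestomach side were shared regions that lost a narrow intestine peak.

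**Figure D2:**
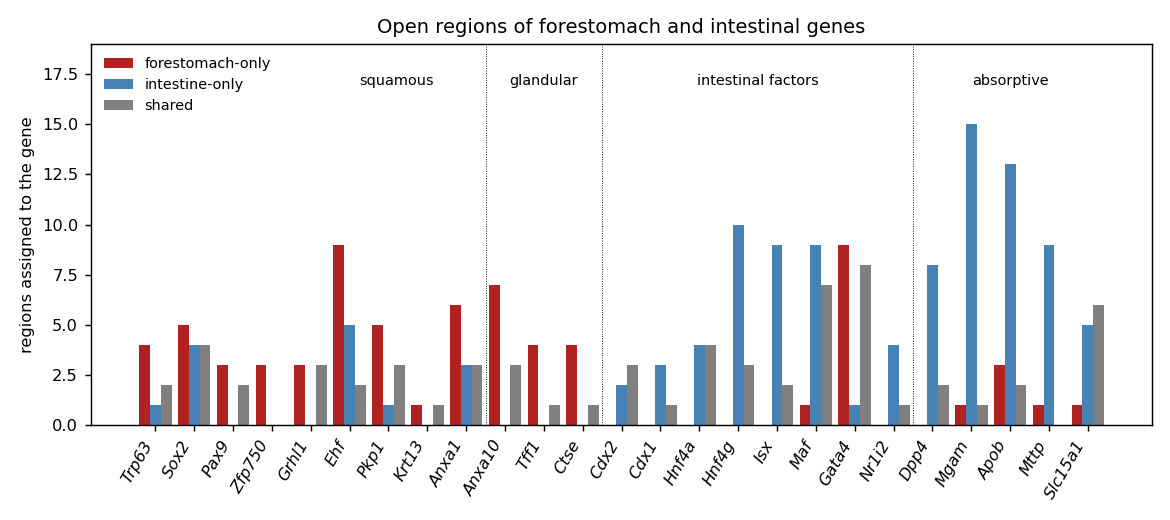
Number of forestomach-only, intestine-only and shared regions given to 25 genes, chosen after their values were seen, in 4 groups (squamous, glandular stomach, intestinal transcription factors, absorptive). Anxa10 has 7 forestomach-only regions and no intestine-only one, and Hnf4g and Isx have 10 and 9 intestine-only regions and no forestomach-only one. Gata4 leans to forestomach with 9 against 1, and E16 hindstomach had a peak at all 9.

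Genes of the absorptive enterocyte leaned to small intestine in each of the 3 lists that hold them. Brush border genes did so in 11 of 17 members, with 5 towards forestomach and 20 against 52 regions. Mgam, the maltase of the brush border, had 1 forestomach-only and 15 intestine-only regions, and the peptidases Dpp4 and Enpep had 0 and 8, and 2 and 7. Without narrow peaks Mgam had 1 and 10, Dpp4 0 and 3 and Enpep 4 and 5. Espn, an actin-bundling protein of microvilli, went the other way with 4 and 0. Lct, the lactase gene, had 1 and 1.
Lipid handling genes leaned to small intestine in 9 of 13 members and to forestomach in 2, with 23 against 48 regions. Apob had 3 forestomach-only and 13 intestine-only regions, and Mttp, which loads lipid onto apolipoprotein B, had 1 and 9. Mogat2, a monoacylglycerol acyltransferase, had 1 and 4, whereas Dgat2, a diacylglycerol acyltransferase found in many tissues, had 6 and 3. Without narrow peaks Apob was nearly even at 3 and 4, while Mttp had 1 and 8, Mogat2 2 and 4 and Dgat2 7 and 2. No region was given to Fabp1, the liver-type fatty acid binding protein.
Transporter genes leaned to small intestine in 10 of 14 members and to forestomach in 2. Slc15a1, the peptide transporter, had 1 and 5 with 6 shared regions, and Slc2a2, the basolateral glucose transporter, 1 and 4, and both had 1 and 3 without narrow peaks. The glucose cotransporter gene Slc5a1 was nearly even, at 4 and 5. Slc3a1 went the other way with 4 and 1, although its promoter window had a peak in small intestine alone. List medians were -0.74 for brush border, -1.22 for lipid handling and -0.74 for transporters. Under the common width limit they stood 1.14, 1.32 and 1.14 below that of all genes, while the counts of members became 6 against 7, 5 against 6 and 4 against 4. Over regions away from gene ends the medians were -0.74, -0.18 and -0.18, with 4 members against 9, 3 against 6 and 2 against 6.

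**Figure D3:**
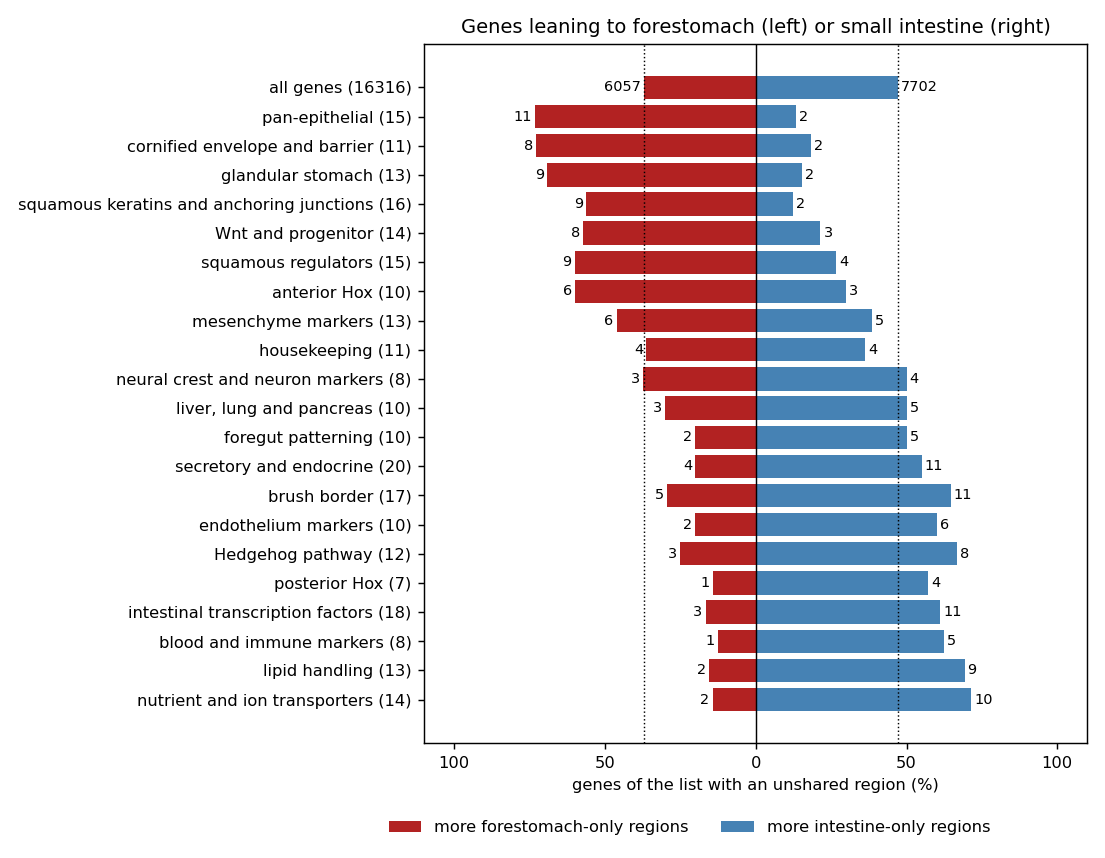
Share of genes with an unshared region (number in brackets) that had more forestomach-only (left) or more intestine-only regions (right), for 21 gene lists and all genes, with the number of genes at each bar and dotted lines at the shares of all genes. Squamous, glandular and pan-epithelial lists lie beyond the left line, and transporter, lipid handling and intestinal transcription factor lists lie beyond the right one. Among others, the Wnt and anterior Hox lists also lie beyond the left line. Hedgehog, blood and endothelium lists also lie beyond the right line.

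Secretory and endocrine genes leaned to small intestine in 11 of 20 members and to forestomach in 4. Gfi1, a factor of secretory cells, had 0 forestomach-only and 3 intestine-only regions, and Neurog3, which starts the endocrine lineage, 0 and 2. Without narrow peaks Gfi1 had 0 and 2 and Neurog3 none of either. Spdef and Agr2, genes of mucus-making cells, went the other way, at 6 and 1 and at 4 and 0. With the common width limit 13 members leaned to forestomach and 5 to small intestine, and the list median lay 0.10 below that of all genes. In the main counts the median was -0.69. It was 0.00 with lists cut to the same length by width (8 against 8 members) and with gene bodies only (6 against 6). Thinning and gene bodies extended by 10 kb also gave 0.00. Over regions away from gene ends it was -0.74, with 6 against 11.
Wnt and progenitor genes leaned to forestomach in 8 of 14 members and to small intestine in 3, with a median of 0.31. With gene bodies extended by 10 kb, 6 members leaned to forestomach and 4 to small intestine, and the median was 0.00. The Eph receptors Ephb2 and Ephb3 had 14 and 7 and 10 and 3, Tnfrsf19, a receptor of stem cells, 7 and 2, and Olfm4 9 and 4. The crypt stem cell receptor Lgr5 was nearly even, at 6 and 7, and had 7 and 3 without narrow peaks.
Hedgehog genes leaned to small intestine in 8 of 12 members and to forestomach in 3, with Gli2 at 10 and 20 and the ligand-binding inhibitor Hhip at 3 and 8. The ligand Shh itself had 10 forestomach-only and 5 intestine-only regions. Under that limit 9 members leaned to forestomach and 1 to small intestine, and the median equalled that of all genes, while Gli2 had 12 regions of forestomach alone against 11 and Hhip 4 against 3. Among posterior Hox genes Hoxb9 had 0 and 4, and the list leaned to forestomach in 1 of 7 members and to small intestine in 4. Without narrow peaks Hoxb9 had 0 and 3, and 3 members leaned to forestomach and 1 to small intestine. Anterior Hox genes leaned to forestomach in 6 of 10 members and to small intestine in 3.

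Markers of other cells were counted beside these lists. Mesenchyme markers leaned to forestomach in 6 and to small intestine in 5 of 13 members, blood and immune markers in 1 and 5 of 8, and endothelium markers in 2 and 6 of 10. Neural markers did so in 3 and 4 of 8, and genes of liver, lung and pancreas in 3 and 5 of 10. Ptprc, the pan-leukocyte gene, had 2 forestomach-only and 5 intestine-only regions. Of the mesenchymal transcription factors Foxf1 had 2 and 6 and Twist2 6 and 9, and the mesenchymal filament gene Vim had 2 and 0. Without narrow peaks 5 blood markers leaned to forestomach and 2 to small intestine, as did 7 and 2 endothelium markers, with Ptprc at 3 and 2, Foxf1 at 2 and 3 and Twist2 at 6 and 4. No region was given to Gata1 or Sox10, and none of the 9 mesenchyme genes in the promoter table had a promoter peak in either tissue. Within 1 kb of a gene end, however, 4 of the 15 mesenchyme genes had peaks of both tissues. Another 3 had one of forestomach alone and 2 one of small intestine alone. Promoters of 2 of 9 blood markers and of 2 of 7 neural markers were open in both tissues. Pan-epithelial genes leaned to forestomach in 11 of 15 members and to small intestine in 2, with Cdh1 (E-cadherin) at 9 and 4 and Krt19 at 5 and 1, whereas Epcam stood at 6 and 6. Under the same limit the pan-epithelial median lay 0.08 above that of all genes. Housekeeping genes leaned in 4 and 4 of 11 members, and 42.3% of their regions were shared against 31.2% of regions of all genes. Without narrow peaks 8 housekeeping genes leaned to forestomach and 1 to small intestine, with a median 0.44 above that of all genes. The part of other cells in the lists above was not tested.

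Among genes shorter than 100 kb with regions of a single tissue, those with the most forestomach-only regions included Fgf1, a fibroblast growth factor, with 10, and Gsn, the actin-severing gelsolin, with 9. Mink1, a kinase, had 8, and Msx2, a homeobox factor, 6, each with 0 intestine-only regions. In the other direction Nphp4, of the ciliary transition zone, had 12, Nudt7, a peroxisomal coenzyme A hydrolase, 10, Ache, acetylcholinesterase, 9 and Slc34a2, a sodium-phosphate cotransporter, 8, each with 0 forestomach-only regions. By excess of regions alone Abcc4, an efflux transporter, led for forestomach with 24 against 7, and Aff1 and the BMP receptor Bmpr1b followed with 17 against 2 each. For small intestine Dab1 led with 8 against 34 and Sdk1 with 14 against 40. Genes ranked high by excess were long, at 414 kb by median where the median over all genes was 17.3 kb, and longer genes hold more regions.
In 100 kb bins, the densest for forestomach held 10 forestomach-only and 0 intestine-only regions at Irf2bpl (chr12:86800001-86900000) and 11 and 1 at Srsf3 and Cdkn1a, which encodes the cell-cycle inhibitor p21 (chr17:29000001-29100000). The densest for small intestine held 1 and 16 at Afg3l1, Dbndd1 and Gas8 (chr8:123500001-123600000). With bins of 50 kb, 2 of the 5 densest forestomach bins and 3 of the 5 densest intestine bins were among the leading ones again. Neither the genes named in this paragraph nor the bins were counted again without narrow peaks.

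Promoters were read over the 300-base windows of 17273 genes. In 1109 genes (6.42%) the promoter had a peak in forestomach only, in 573 (3.32%) in small intestine only, in 7591 (43.9%) in both and in 8000 in neither. With the common width limit the single-tissue counts were 1424 (8.24%) and 420 (2.43%). No squamous regulator of the 7 in the table had a promoter open in a single tissue, and 5 were open in both. Cornified envelope genes had 3 of 12 promoters open in forestomach alone (Anxa1, Ivl and Rptn) and 1 in small intestine alone (Tgm1). Glandular stomach genes had 4 of 12 open in forestomach alone (Anxa10, Cblif, Cldn18 and Vsig1) and 1 in small intestine alone (Aqp5). Without narrow peaks these forestomach counts were the same, Tgm1 remained and Aqp5 did not.
Lipid handling genes had 0 of 11 promoters open in forestomach alone and 5 in small intestine alone, Apob, Apoa1, Npc1l1, Abcg5 and Abcg8. The sterol exporter genes Abcg5 and Abcg8 face away from each other and share 1 peak of 87 bp. Transporter genes had 2 of 12 open in forestomach alone (Slc46a1 and Slc6a19) and 5 in small intestine alone, among them Slc5a1, Slc7a9 and Slc26a3. Brush border genes had 0 of 15 and 3 of 15 (Vil1, Sis and Mep1a), and intestinal transcription factors 0 of 10 and 2 of 10 (Cdx2 and Nr1i2). Without narrow peaks the lipid handling list kept Apob and Npc1l1 alone, so that 0 promoters were open in forestomach alone and 2 in small intestine alone. Transporters then stood at 2 and 4, without Slc7a9, and brush border genes at 1 and 2, without Sis, while Cdx2 and Nr1i2 remained.
A promoter open in a single one of the compared tissues was mostly not private to it. Of the 1109 forestomach promoters 93.6% had a peak in KO stomach, 85.6% in E13 stomach, 78.7% in hindstomach, 72.2% in E13 intestine and 30.0% in colon. Of the 573 intestine promoters 81.2% had one in KO stomach, 70.9% in E13 stomach, 70.2% in E13 intestine, 58.1% in hindstomach and 35.3% in colon. The intestine promoter of Apob had a peak in E13 intestine and in no other of the 5 libraries, and those of Npc1l1 and Mep1a in none. The forestomach promoter of Ivl had none there either, and that of Krt13 had one in KO stomach alone.

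Across whole classes, forestomach-only regions were met most often in hindstomach and intestine-only regions in colon. Of the forestomach-only regions 54.8% (54.3 to 55.2) had a peak in hindstomach, 39.8% in KO stomach, 30.2% in E13 stomach, 21.3% in colon and 17.2% in E13 intestine. Of the intestine-only regions 43.7% (43.3 to 44.2) had a peak in colon, 26.3% in hindstomach, 13.4% in KO stomach, 13.1% in E13 intestine and 12.2% in E13 stomach. Regions with no peak in any of these 5 libraries were 27.0% of the forestomach-only and 39.2% of the intestine-only class. Shared regions had a peak in hindstomach in 87.3% and in colon in 81.9%. The colon list is the longest with 135743 peaks and the E13 intestine list the shortest with 81179, so shares in different libraries are not on 1 footing, whereas the classes can be read side by side within a library.

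**Figure D4:**
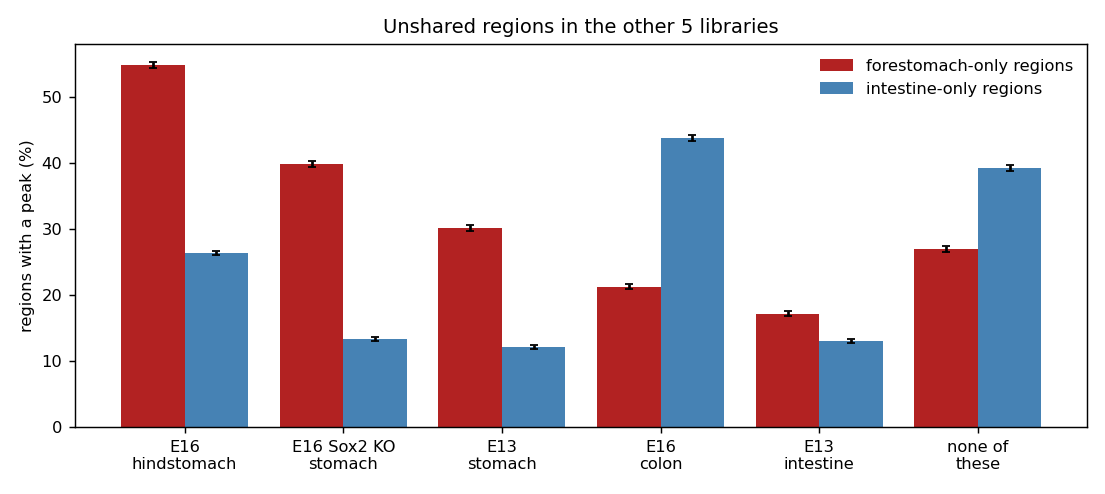
Share of forestomach-only and of intestine-only regions that had a peak in each of the other 5 libraries, or in none of them, with 95% Wilson intervals (counting error only). Forestomach-only regions exceed intestine-only ones in the hindstomach, KO stomach, E13 stomach and E13 intestine, and the order is turned round in colon, 21.3% against 43.7%.

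Motif letters were counted in 21044 promoter windows, of which 1370 had a peak in forestomach only and 703 in small intestine only. These windows belong to 17273 genes, and some overlap, as those of Abcg5 and Abcg8 do. The windows are thus not all independent, which the intervals do not allow for. The motifs, on both strands, were CATTGT for SOX, TTTATNG for CDX, CAAAGTC for HNF4, AGATAA for GATA factors, TGTTTAC for FOXA, TGANTCA for AP-1, AACNNGTT for GRHL, GGAATG for TEAD and GGGNGTGG for KLF factors, beside the longer HNF1 and p63 motifs. For AP-1 and HNF4 the intervals of the single-tissue classes lay apart, in opposite directions. AP-1 letters stood in 10.6% of forestomach windows (9.06 to 12.3), in 5.69% of intestine windows (4.21 to 7.66) and in 7.04% of all windows. HNF4 letters stood in 2.92% (2.15 to 3.95), 6.54% (4.94 to 8.62) and 4.17%. Over the central 100 bases of the windows the intervals overlapped for both, with AP-1 letters in 4.01% (3.10 to 5.19) of forestomach and 2.13% (1.30 to 3.49) of intestine windows, and HNF4 letters in 0.803% (0.449 to 1.43) and 1.42% (0.774 to 2.60).
For the other 9 motifs the intervals overlapped. SOX letters stood in 6.79% of forestomach and 9.25% of intestine windows, and CDX letters in 7.23% and 8.68%. For p63 the letters were found in 2 windows of each class, and HNF1 letters in 4 and 8. The windows also differed in base composition from those with no peak, with a median of 17 CpG in forestomach windows, 15 in intestine windows and 4 in windows with neither peak.
Windows were therefore also split at the median of 13 CpG of all windows. Among CpG-poor windows AP-1 letters stood in 20.7% of the forestomach ones (17.4 to 24.5), in 9.46% of the intestine ones (6.71 to 13.2), in 9.76% of those open in both tissues and in 10.3% of those open in neither. HNF4 letters stood in 4.63% (3.10 to 6.85), 10.4% (7.51 to 14.3), 6.48% and 5.21%. Here the intervals of GATA letters, at 10.5% (8.07 to 13.5) and 18.0% (14.1 to 22.6), and of KLF letters, at 24.1% (20.6 to 28.1) and 12.9% (9.68 to 17.1), lay apart too. In CpG-rich windows AP-1 letters stood in 4.81% of forestomach and 2.59% of intestine windows and HNF4 letters in 1.95% and 3.37%, with overlapping intervals. The split was chosen after the data were seen. Forestomach cells had passed through dispase and collagenase and intestinal cells had not, so tissue and handling cannot be told apart in the AP-1 values. Motifs in the regions away from promoters were not analysed here. Motif shares were not counted again with the common width limit.

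**Figure D5:**
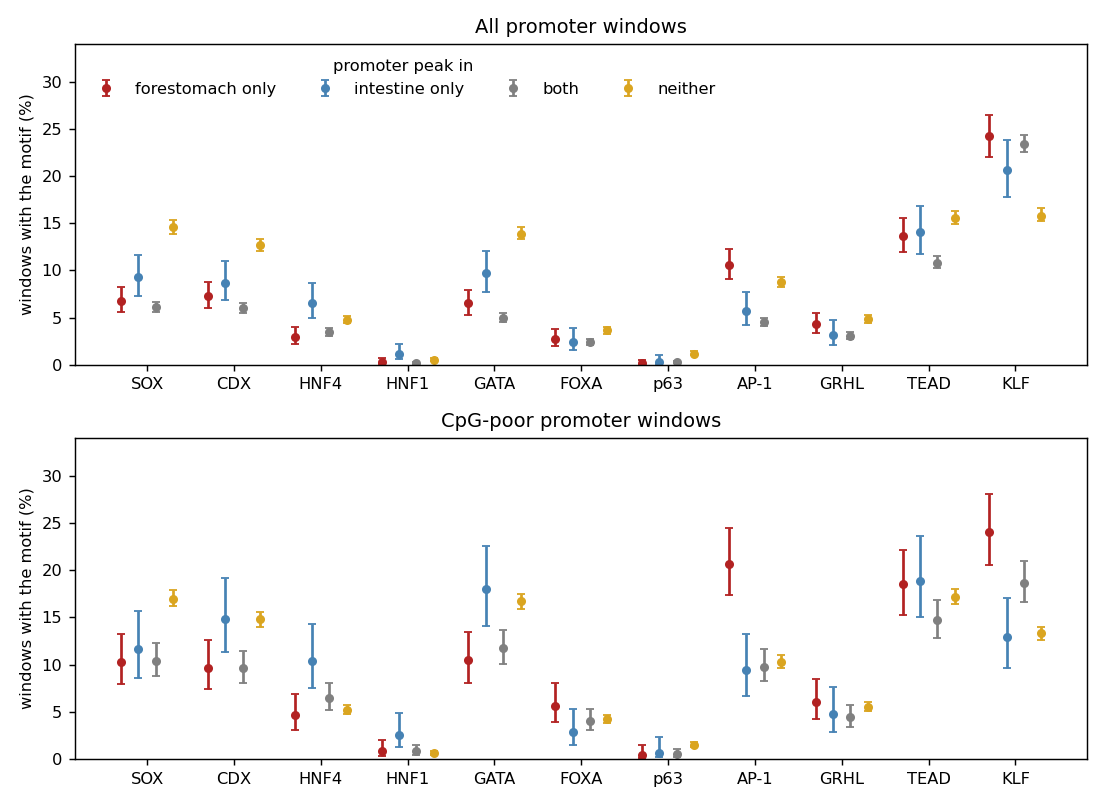
Share of promoter windows holding each of the 11 motifs by the tissue with a promoter peak, in all windows (top) and in windows with fewer than 13 CpG (bottom), with 95% Wilson intervals (counting error only). AP-1 stands at 20.7% in CpG-poor forestomach windows, against 9.46% in intestine ones, and HNF4 at 4.63% against 10.4%.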

How the data were processed

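The authors deposited, for each of 7 libraries, a list of peaks with 3 columns (chromosome, start, end) and no height, score or read count, so the unit is other than a signal and depth per library is unknown. Of tools, the submitters' processing notes list MACS2, Bowtie2 and cutadapt, with mm10 (GRCm38) as the build. Their versions, the calling threshold and any pooling were not found in these sources. Peak positions are printed as deposited, and the base they count from is unknown.

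Peaks of the E16 forestomach and E16 intestine lists were merged where they overlapped by at least 1 bp and classed by tissue, with no test, since each group had 1 library. Genes are protein-coding RefSeq genes of GRCm38.p6, whose table gives no strand, so gene ends cover both ends. All 307 genes of the 21 lists were found. Named genes are, per direction, the 12 with the largest excess and the 12 with the most regions of a single tissue, up to 4 per list with an excess of at least 2, and always Sox2, Trp63, Cdx2 and Hnf4a, of which a part is printed; a few other members are given to complete a list and were chosen after their values were seen. One withheld item is not reported here. The members, lists and motifs were chosen with earlier results of these data known. Merging, gene assignment and motif search were checked on simulated data. Alternatives changed the overlap, list lengths, widths, windows, gene assignment, bins and chromosomes. Python 3.11.15 was used with numpy 2.4.6, pandas 2.3.3 and matplotlib 3.10.9.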

Additional observations from a re-analysis of the deposited data

How the results depend on the processing

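No paired analysis was possible because each tissue has 1 library, and for the same reason no replicate could be left out. The Jaccard index moved to 0.289 with an overlap of at least 50% of the shorter peak, 0.307 with peaks within 100 bp joined, 0.310 with the widest peaks at equal list length, 0.282 with the longer list thinned at random and 0.312 with the common width limit. The difference of forestomach-only minus intestine-only regions turned from -9339 to 684 with the widest peaks, 597 with thinning and 24617 with the common width limit.

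That limit removes peaks from the intestine list alone. It left 26828 intestine-only regions, 2169 of them at gene ends, and 10226 genes leaning to forestomach against 3220 to small intestine. Of those intestine-only regions 4022 had a peak in E13 stomach, 8809 in hindstomach, 4358 in KO stomach, 4589 in E13 intestine and 13707 in colon. It shifts the median ratio of all genes to 1.14, in place of 0.00, and counts of members carry that shift. It turned the lean of 7 lists, as members towards forestomach minus members towards small intestine, to 8 for foregut patterning, 4 for intestinal transcription factors, 8 for secretory and endocrine, 8 for Hedgehog, 2 for posterior Hox, 3 for blood and 5 for endothelium markers. Against all genes the medians of these lists stood at -0.29, -0.55, -0.10, 0.00, -0.40, -0.65 and -0.23. Foregut patterning turned also with gene bodies extended by 10 kb (5) and with gene bodies only (6).

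Gene-end regions of small intestine numbered 2452 with a window of 0.5 kb. Genes with a promoter peak in forestomach only numbered 1832 with thinning, and those in small intestine only 914 with a window of 2 kb. Of the 5 densest bins, 2 for forestomach and 3 for small intestine were met again with bins of 50 kb. Motif shares were counted again only over the central 100 bases and in CpG-poor and CpG-rich windows, with the peak lists unchanged. None of these turned the AP-1 or HNF4 difference, but over the central 100 bases and in CpG-rich windows the intervals overlapped for both. The common width limit and the other changes of the peak lists were not applied to motifs. Counting intervals cover neither depth nor replicate spread.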
